A study of Mus musculus with 4 samples.

Results

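Chromatin accessibility was compared between CD4 and CD8 T cells taken from the bone marrow of mice given post-transplantation cyclophosphamide (PT-Cy). The cells were chosen by the authors' label of each cell in the deposited per-cell table, which gave 284 CD4 and 512 CD8 cells, together 796 of the 3587 cells of the series. Accessibility was read by ATAC, in which a transposase cuts open DNA and the cuts are counted over peaks. Of 148283 deposited peaks, 21588 had at least 50 counts over the 2 sets and were compared. Counts of peaks that overlap a protein-coding gene or lie within 2 kb of it were also summed per gene, here called a locus, and 13460 of 17680 loci reached 50 counts.

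The PT-Cy mice were C57Bl/6 recipients of C3HSW donor cells (bone marrow with equal numbers of CD4 and CD8 T cells), and received 50 mg/kg of cyclophosphamide on day 3 and again on day 4 after transplantation. The alloBMT mice received the same transplant without the drug and serve below as a second measurement of the same lineage contrast, in other mice and under another treatment. In both groups marrow was taken on day 14 and its T cells of both lineages were sorted, and cells of 4 mice were pooled into 1 library. Both groups carry the transplant, so neither shows the lineage contrast of an untransplanted mouse, and donor and host T cells were not separated in the labels. With 1 library per group no test was made. Differences are given as the log2 ratio of CD4 to CD8 CPM (counts scaled to a set total of 1e6 in peaks), with an exact conditional binomial 95% interval that covers counting error only and leaves out the spread between cells and between mice.

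CD4 and CD8 T cells part in the thymus, where the zinc finger factor ThPOK, encoded by Zbtb7b, holds cells to the helper fate and RUNX3 holds them to the cytotoxic fate. Each factor keeps the other programme closed, and RUNX proteins silence Cd4 in CD8 cells through an element inside the gene. Cyclophosphamide, a DNA-alkylating drug, is given early after a transplant to prevent graft-versus-host disease, and how it acts on alloreactive T cells is debated.

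The 2 PT-Cy sets were of like quality and unlike depth. The CD4 set held 1538967 counts in peaks and the CD8 set 3117872, with medians of 4090.5 and 4615 counts per cell. The median share of fragments in peaks was 58.3% in CD4 and 58.5% in CD8 cells, and the median enrichment at transcription start sites 5.27 and 5.24. In alloBMT the share in peaks was 66.6% and 65.4% and the median 6874 and 7841 counts per cell. The part of these values in any difference between the libraries was not tested. In alloBMT the totals were 6974362 counts for 926 CD4 cells and 16605930 counts for 1865 CD8 cells, so the alloBMT ratios have narrower intervals. The 2 libraries shared 2 cell barcodes.

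The co-receptor loci followed the labels in PT-Cy, with a narrower gap at Cd8a than in alloBMT. Cd8b1, the beta chain of the CD8 co-receptor, had 16.2 CPM in CD4 and 66.1 CPM in CD8 cells, a log2 ratio of -2.02 (-2.69 to -1.42). In alloBMT it had 12.5 CPM in CD4 and 58.0 CPM in CD8 cells, a log2 ratio of -2.22 (-2.55 to -1.90), so the Cd8b1 contrast was of about the same size with and without the drug. Cd8a, the alpha chain, had 14.3 CPM in CD4 and 27.9 CPM in CD8 cells of PT-Cy, a log2 ratio of -0.96 (-1.71 to -0.28), against 7.03 CPM in CD4 and 33.4 CPM in CD8 cells of alloBMT, a log2 ratio of -2.25 (-2.70 to -1.82). The difference between the 2 libraries at Cd8a was 1.28 on the log2 scale (0.41 to 2.11). Over the 19 peaks from Cd8b1 to Cd8a with 2 kb on each side, CD4 cells stood at 35.1% of the CD8 level in PT-Cy (29.0 to 42.3) and at 18.6% in alloBMT (16.6 to 20.9).

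**Figure D1:**
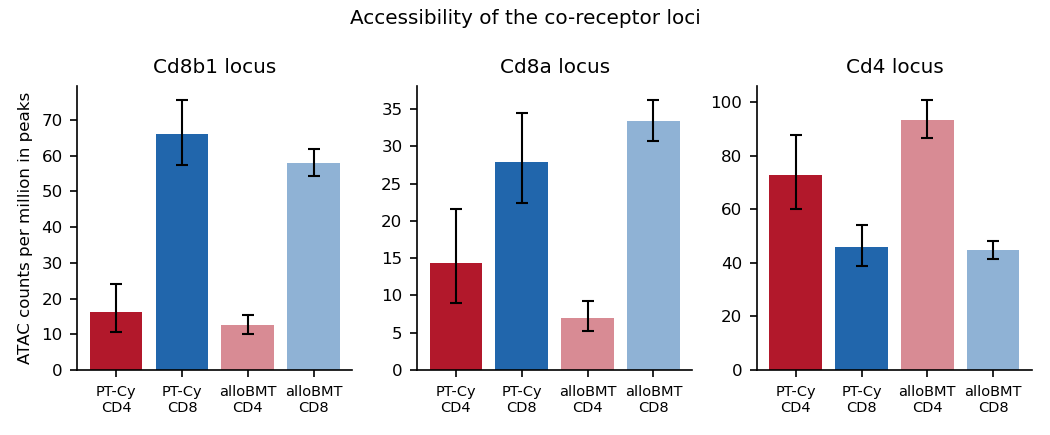
ATAC CPM at the Cd8b1, Cd8a and Cd4 loci, each in CD4 cells (red) and CD8 cells (blue) of PT-Cy and, in paler colours, of alloBMT; bars are the values of 1 pooled library each and whiskers are exact Poisson 95% intervals that cover counting error only. In PT-Cy the CD4 cells had 16.2 CPM at Cd8b1, 14.3 at Cd8a and 72.8 at Cd4, against 66.1, 27.9 and 45.9 CPM in the CD8 cells.

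All 6 peaks with at least 50 counts from Cd8b1 to Cd8a were less open in CD4 cells of PT-Cy by point ratio. The peak over the start of Cd8b1, chr6:71321712-71323019 as deposited, had 11.7 CPM in CD4 and 39.4 CPM in CD8 cells (log2 ratio -1.75, -2.56 to -1.03; alloBMT -2.21). A peak between the genes, chr6:71351135-71352565, had 9.10 CPM in CD4 and 36.2 CPM in CD8 cells (log2 ratio -1.99, -2.91 to -1.19; alloBMT -2.76). The peak over the Cd8a start, chr6:71373077-71373647, rested on 11 counts in CD4 and 49 in CD8 cells and had a log2 ratio of -1.14 (-2.23 to -0.17; alloBMT -2.34). At all 6 peaks the ratio lay nearer to 0 in PT-Cy than in alloBMT, and at 1 of them, 31.9 kb below the Cd8a start, the PT-Cy interval reached past 0 (log2 ratio -0.77, -1.71 to 0.08).

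RNA of the same nuclei was available for the CD4 set. Every one of the 284 PT-Cy CD4 cells had a Cd4 UMI (a unique RNA molecule) and 0 had a Cd8a UMI, as in all 926 alloBMT CD4 cells, so the label appears to rest on these 2 genes and they do not check it. Of the 284 cells, 91 (32.0%, 26.7 to 37.8) had a Cd8b1 UMI. In alloBMT 195 of 926 CD4 cells (21.1%, 18.5 to 23.8) had one, at a median of 2750 UMIs per cell against 3889 in PT-Cy. With the 91 cells left out, the PT-Cy CD4 set stood at 20.05% of the CD8 level at Cd8b1 (10.5 to 35.1) and at 47.5% at Cd8a (24.3 to 85.5), against 24.6% (15.5 to 37.3) and 51.2% (30.5 to 82.5) with them. In alloBMT the same step gave 12.0% at Cd8b1 and 10.4% at Cd8a, against 21.5% and 21.1% with all cells. Whether CD8 cells or free RNA entered the CD4 set was not tested.

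Cd4 itself had 72.8 CPM in CD4 and 45.9 CPM in CD8 cells of PT-Cy, a log2 ratio of 0.67 (0.30 to 1.03), and 93.5 and 44.7 CPM in CD4 and CD8 cells of alloBMT, a log2 ratio of 1.07 (0.91 to 1.22). The contrast came mainly from a peak inside the gene, chr6:124884875-124886458, with 42.9 CPM in CD4 and 26.0 CPM in CD8 cells (log2 ratio 0.72, 0.23 to 1.21; alloBMT 1.25). The other peak of the locus with enough counts, chr6:124862897-124864251, overlaps the neighbouring gene Gpr162 and had a log2 ratio of 0.29 (-0.36 to 0.92). CD8 cells kept a counted signal at Cd4 in both libraries.

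The 250 bases before the start site are shown for 5 genes whose promoter peak carries a lineage value given in the text: the co-receptor gene Cd8a, the CD8 lineage factors Runx3 and Eomes, the pore protein Prf1 and the membrane protein Tmem176a, whose peak also covers the start of Tmem176b. Sequences are from RefSeq on GRCm38.p6 and read 5′ to 3′ along the gene. Capitals mark matches, on either strand, to any of 7 motifs, of which TGTGGT (RUNX) and CAGCTG (an E-box) were found here.
Cd8a, GRCm38.p6 chr6:71373177-71373426, plus strand: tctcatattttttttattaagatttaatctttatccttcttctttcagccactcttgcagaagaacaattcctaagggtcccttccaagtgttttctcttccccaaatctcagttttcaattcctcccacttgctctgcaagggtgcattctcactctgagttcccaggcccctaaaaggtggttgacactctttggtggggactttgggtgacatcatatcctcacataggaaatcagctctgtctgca
Runx3, GRCm38.p6 chr4:135120395-135120644, plus strand: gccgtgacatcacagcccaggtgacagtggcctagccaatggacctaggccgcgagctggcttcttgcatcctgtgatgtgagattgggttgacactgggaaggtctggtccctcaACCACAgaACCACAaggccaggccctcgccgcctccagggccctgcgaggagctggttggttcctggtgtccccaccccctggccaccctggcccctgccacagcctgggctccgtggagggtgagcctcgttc
Eomes, GRCm38.p6 chr9:118477939-118478188, plus strand: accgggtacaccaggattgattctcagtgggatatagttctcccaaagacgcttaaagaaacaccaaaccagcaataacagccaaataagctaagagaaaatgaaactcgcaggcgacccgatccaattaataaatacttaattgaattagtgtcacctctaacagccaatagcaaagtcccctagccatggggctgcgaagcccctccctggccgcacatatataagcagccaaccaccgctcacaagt
Prf1, GRCm38.p6 chr10:61297586-61297835, plus strand: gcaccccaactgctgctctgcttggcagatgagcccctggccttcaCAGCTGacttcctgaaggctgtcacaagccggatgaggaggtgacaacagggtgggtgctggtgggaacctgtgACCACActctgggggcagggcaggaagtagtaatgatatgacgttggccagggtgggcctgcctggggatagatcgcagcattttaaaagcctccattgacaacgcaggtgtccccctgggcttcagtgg
Tmem176a, GRCm38.p6 chr6:48841233-48841482, plus strand: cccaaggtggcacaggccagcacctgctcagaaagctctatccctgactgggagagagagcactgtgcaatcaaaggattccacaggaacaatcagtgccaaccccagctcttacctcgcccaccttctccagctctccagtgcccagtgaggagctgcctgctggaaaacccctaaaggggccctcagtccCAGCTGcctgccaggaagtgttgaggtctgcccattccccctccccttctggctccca
Runx3 holds 2 RUNX matches, which start 134 and 126 bases before its start site, Prf1 holds 1 E-box at 204 bases and 1 RUNX match at 130 bases, and Tmem176a holds 1 E-box at 58 bases. Cd8a and Eomes hold no match in these letters. The RUNX letters occur in 12.1% and the E-box letters in 13.9% of the promoters of the 9836 measured loci that have a start site in a peak, so a match by itself sets no gene apart.

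Zbtb7b and Runx3 differed less than the co-receptors by point ratio. Zbtb7b had 104.6 CPM in CD4 and 76.0 CPM in CD8 cells of PT-Cy, a log2 ratio of 0.46 (0.16 to 0.76), and nearly the same ratio in alloBMT (0.47, 0.33 to 0.61). Of its 6 peaks, 3 had at least 50 counts. The peak at the upper end of the gene, chr3:89393432-89394360, had 44.2 CPM in CD4 and 28.2 CPM in CD8 cells (log2 ratio 0.65, 0.17 to 1.12; alloBMT 0.22), and a peak 11.6 kb above the gene's low end, with 0.71 (0.42 to 0.99) in alloBMT, had 0.11 (-0.56 to 0.77) in PT-Cy. Runx3 had 238 CPM in CD4 and 316 CPM in CD8 cells, a log2 ratio of -0.41 (-0.58 to -0.23), against -0.06 (-0.13 to 0.01) in alloBMT. Its promoter peak, whose sequence is shown above, had 50.0 CPM in CD4 and 60.6 CPM in CD8 cells, with an interval across 0 (log2 ratio -0.28, -0.68 to 0.11). At Runx3, 2 peaks inside the gene had intervals wholly below 0. The peak 48.2 kb above the gene's low end, chr4:135167942-135169752, had 22.7 CPM in CD4 and 51.6 CPM in CD8 cells (log2 ratio -1.18, -1.75 to -0.65; alloBMT -0.02), and the peak at 38.9 kb had 29.2 CPM in CD4 and 45.9 CPM in CD8 cells (log2 ratio -0.65, -1.17 to -0.16; alloBMT 0.28).

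**Figure D2:**
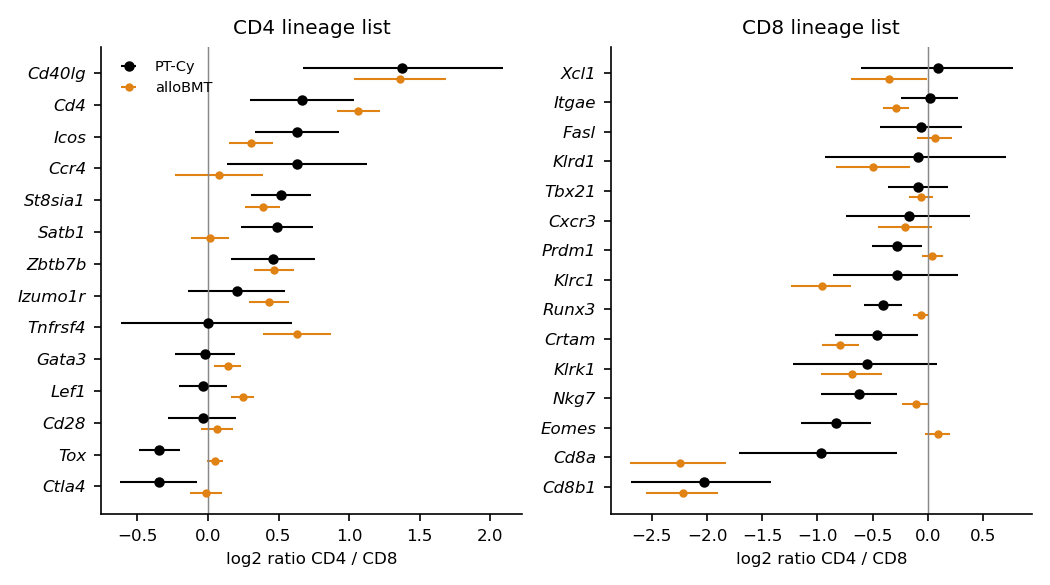
Log2 ratio of CD4 to CD8 CPM at the loci of the CD4 lineage list (14 genes) and the CD8 lineage list (15 genes), in PT-Cy (black) and alloBMT (orange), with exact 95% intervals that cover counting error only. Cd8b1 and Cd40lg had nearly the same ratio in both libraries, Cd8a lay nearer to 0 in PT-Cy, and Eomes and Nkg7 lay below 0 in PT-Cy with an alloBMT ratio near 0.

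Of the 14 genes of the CD4 lineage list, 8 had a ratio above 0 in PT-Cy, where 52.1% of all loci did. In alloBMT 13 did, against 53.2% of all loci. The interval lay wholly above 0 for 7 and wholly below 0 for 2 of the 14 in PT-Cy, where these shares over all 13460 loci were 6.35% and 5.5%. In alloBMT 9 lay wholly above and 0 wholly below, against 11.4% of all loci on each side. The list median was 0.33 in PT-Cy and 0.28 in alloBMT, against 0.01 over all loci in each library, and the ratio of the list's summed counts was 0.08 in PT-Cy (0.02 to 0.15), with Tox, the member with the most counts, below 0. Cd40lg, the ligand by which helper cells act on B cells and dendritic cells, had 26.6 CPM in CD4 and 10.3 CPM in CD8 cells of PT-Cy, 2.60-fold higher in CD4 (log2 ratio 1.38, 0.67 to 2.09; alloBMT 1.36). Icos, a costimulatory receptor of helper cells, had a log2 ratio of 0.63 (0.33 to 0.93; alloBMT 0.31), and St8sia1, a ganglioside enzyme, had 0.52 (0.30 to 0.73; alloBMT 0.39). Satb1, a chromatin organiser needed in early T cell fate choice, had 144 CPM in CD4 and 103 CPM in CD8 cells of PT-Cy, a log2 ratio of 0.49 (0.24 to 0.74), and 0.02 (-0.12 to 0.15) in alloBMT.

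Part of the CD4 list showed no CD4 bias after PT-Cy. Tnfrsf4, the costimulatory receptor OX40, had 23.4 CPM in both sets (log2 ratio 0.00, -0.62 to 0.59), with 0.63 (0.39 to 0.87) in alloBMT. Lef1, a partner of beta-catenin, had -0.04 (-0.21 to 0.13) in PT-Cy and 0.25 (0.17 to 0.33) in alloBMT. Tox, a factor of CD4 development in the thymus and of T cell exhaustion, had 353 CPM in CD4 and 448 CPM in CD8 cells of PT-Cy, a log2 ratio of -0.34 (-0.49 to -0.20), against 0.05 (-0.01 to 0.11) in alloBMT. Ctla4, an inhibitory receptor, likewise had -0.35 (-0.62 to -0.08) in PT-Cy and -0.01 (-0.12 to 0.10) in alloBMT. Gata3 and Cd28 had ratios of -0.02 and -0.04 in PT-Cy, with intervals across 0.

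Of the 15 genes of the CD8 lineage list, 13 had a ratio below 0 in PT-Cy, where 47.9% of all loci did. In alloBMT 12 did, against 46.8% of all loci. The interval lay wholly below 0 for 7 in PT-Cy (5.5% of all loci) and for 8 in alloBMT (11.4% of all loci). The list median was -0.28 in PT-Cy and -0.29 in alloBMT. The members behind these medians differed. Eomes, a T-box factor of memory CD8 cells, had 70.2 CPM in CD4 and 125 CPM in CD8 cells of PT-Cy, a log2 ratio of -0.83 (-1.15 to -0.52), and 0.09 (-0.03 to 0.20) in alloBMT. Its promoter peak, chr9:118477367-118479521, had a log2 ratio of -1.04 (-1.49 to -0.61) in PT-Cy and 0.01 (-0.15 to 0.16) in alloBMT. Nkg7, a protein of cytotoxic granules, had -0.62 (-0.97 to -0.28) in PT-Cy and -0.11 (-0.24 to 0.01) in alloBMT. Against these, Crtam, an adhesion receptor of activated CD8 and NK cells, had -0.46 (-0.84 to -0.09) in PT-Cy and -0.79 (-0.96 to -0.62) in alloBMT. Klrc1 had -0.28 (-0.86 to 0.27) in PT-Cy and -0.96 (-1.24 to -0.69) in alloBMT, and Itgae, the integrin chain CD103, had 0.02 (-0.24 to 0.28) and -0.29 (-0.41 to -0.17). Tbx21, encoding T-bet, and Fasl had PT-Cy ratios of -0.09 and -0.06 with intervals across 0.

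Loci of cytotoxic effector genes were less open in CD4 cells after PT-Cy. Of 15 genes, 14 had a ratio below 0, against 47.9% of all loci. The interval lay wholly below 0 for 8 (5.5% of all loci) and wholly above 0 for 0. In alloBMT, where 11.4% of all loci lay wholly below 0 and 11.4% wholly above, 9 of the 15 lay wholly below and 3 wholly above. The list median was -0.55 in PT-Cy and -0.24 in alloBMT, and the ratio of the summed counts was -0.49 (-0.59 to -0.39) in PT-Cy and -0.12 (-0.16 to -0.08) in alloBMT. Ccl4, a chemokine of activated cytotoxic cells, had 50.7 CPM in CD4 and 120.0 CPM in CD8 cells of PT-Cy, a log2 ratio of -1.24 (-1.61 to -0.89), and -0.21 (-0.33 to -0.09) in alloBMT. All 4 Ccl4 peaks with at least 20 counts had PT-Cy ratios between -1.47 and -1.15. Ccl3 was counted on 1 of these peaks alone and gives no second measurement. Gzmb, a serine protease of cytotoxic granules, had 37.7 CPM in CD4 and 55.8 CPM in CD8 cells of PT-Cy and about the same ratio in both libraries (-0.57, -1.02 to -0.13, and -0.49, -0.69 to -0.29). Gzma, a second granzyme, also kept its ratio (-0.55, -1.20 to 0.06, in PT-Cy and -0.53 in alloBMT), with a PT-Cy interval that reached past 0. Cx3cr1, a chemokine receptor of terminal effector cells, had 45.5 CPM in CD4 and 75.4 CPM in CD8 cells of PT-Cy, a log2 ratio of -0.73 (-1.14 to -0.34), and lay on the other side of 0 in alloBMT (0.26, 0.12 to 0.40).

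Prf1, the pore-forming protein perforin, had 44.2 CPM in CD4 and 87.9 CPM in CD8 cells of PT-Cy, a log2 ratio of -0.99 (-1.40 to -0.60), and -0.50 (-0.64 to -0.36) in alloBMT. The Prf1 peak with the largest contrast by point ratio was not the same in the 2 libraries. The promoter peak, chr10:61296099-61298096, had 36 counts in CD4 and 183 in CD8 cells, a log2 ratio of -1.33 (-1.89 to -0.81), against -0.22 (-0.41 to -0.04) in alloBMT. The peak 8.45 kb above the gene's low end had -0.71 (-1.53 to 0.05) in PT-Cy and -1.05 (-1.36 to -0.75) in alloBMT, with intervals that overlap. Pald1 (chr10:61319656-61383546) and Adamts14 (chr10:61197112-61273419) lie on either side of Prf1 (chr10:61297751-61304684). They share no peak with Prf1 or with each other. They had PT-Cy ratios of -0.97 and -0.92 and alloBMT ratios of -0.61 and -0.71. Whether these neighbouring loci are separate contrasts was not tested. With peaks near gene ends alone Pald1 had -0.27 in PT-Cy.

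The exhaustion list, of inhibitory receptors and factors induced by lasting antigen, was also lower in CD4 cells of PT-Cy. Of 16 measured genes, 14 had a ratio below 0 (47.9% of all loci), 6 of them with an interval wholly below 0 (5.5% of all loci). The median was -0.28. In alloBMT 7 of 16 lay below 0 (46.8% of all loci), with a median of 0.00. There 5 lay wholly below and 3 wholly above, against 11.4% of all loci on each side. Nr4a2, a nuclear receptor induced by T cell receptor signals, had 124 CPM in CD4 and 193 CPM in CD8 cells of PT-Cy, a log2 ratio of -0.64 (-0.88 to -0.40), and -0.07 (-0.16 to 0.02) in alloBMT. Pdcd1, encoding PD-1, had -0.41 (-0.66 to -0.17) in PT-Cy and -0.22 (-0.32 to -0.13) in alloBMT, and Havcr2, encoding TIM-3, had -0.50 (-0.83 to -0.19) and -0.25 (-0.39 to -0.11). The deposited exhaustion score of gene accessibility had a mean of 0.0172 in CD4 and 0.0350 in CD8 cells of PT-Cy, with SDs over cells of 0.0377 and 0.0417, and of 0.0368 and 0.0558 in alloBMT. The deposited stem-like score had means of 0.0744 in CD4 and 0.0815 in CD8 cells of PT-Cy, with SDs over cells of 0.109 and 0.114. The sources used here do not give the genes behind these scores.

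Killer lectin-like receptors, surface receptors of NK and cytotoxic T cells, were sparsely counted, with 4 of 17 genes at 50 counts in PT-Cy. Their PT-Cy median was -0.18, but -0.61 as a mean over cells of CPM, -0.57 with peaks near gene ends alone, -0.40 with thinned CD8 counts, -0.39 without CD4 cells with a Cd8b1 UMI and -0.09 without CD4 cluster 4, and the ratio of their summed counts had an interval across 0 (-0.15, -0.45 to 0.15). In alloBMT all 4 lay below 0 (46.8% of all loci), with a median of -0.62 and a summed ratio of -0.68 (-0.82 to -0.55). Klre1 had 0.29 (-0.27 to 0.84) in PT-Cy and -0.55 (-0.79 to -0.31) in alloBMT.

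Genes of helper subsets leaned to the CD4 side in PT-Cy. Of 18 measured genes, 13 had a ratio above 0 (52.1% of all loci). The interval lay wholly above 0 for 7 (6.35% of all loci) and wholly below for 0. In alloBMT 6 lay wholly above and 3 wholly below, against 11.4% of all loci on each side. The median was 0.27 in PT-Cy and 0.06 in alloBMT. Il23r, the receptor through which IL-23 sustains type 17 cells, had a log2 ratio of 0.84 (0.184 to 1.4998) in PT-Cy and 0.04 (-0.41 to 0.46) in alloBMT. Il1rl1, the IL-33 receptor, had 54.6 CPM in CD4 and 29.5 CPM in CD8 cells of PT-Cy, a log2 ratio of 0.89 (0.44 to 1.33), and -0.18 (-0.46 to 0.10) in alloBMT. Tnfsf11, the cytokine RANKL, kept its CD4 bias (0.83, 0.33 to 1.33, in PT-Cy and 1.01, 0.74 to 1.28, in alloBMT), as did Il6ra (0.48 and 0.50). Maf and Il21, a factor and a cytokine of follicular helper cells, had 0.14 (-0.16 to 0.42) and -0.19 (-0.87 to 0.46) in PT-Cy, against 0.92 (0.79 to 1.05) and 0.62 (0.40 to 0.84) in alloBMT.

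The locus with the highest lower bound in PT-Cy was Tmem176a with Tmem176b, a pair of membrane proteins that share both of their counted peaks. It had 39 counts in CD4 and 16 in CD8 cells, 25.3 and 5.13 CPM, a log2 ratio of 2.30 (1.43 to 3.24). In alloBMT it had 19 counts in CD4 and 62 in CD8 cells, a log2 ratio of -0.45 (-1.28 to 0.31). The 39 counts came from 32 of the 284 CD4 cells, with 28.2% of them in 5 cells. The peak over the 2 start sites, chr6:48840505-48841584, had a log2 ratio of 2.08 (0.99 to 3.27). Il1r1, the IL-1 receptor, had 54.6 CPM in CD4 and 17.3 CPM in CD8 cells of PT-Cy, 3.15-fold higher in CD4 (log2 ratio 1.66, 1.15 to 2.18), and 0.31 (-0.06 to 0.67) in alloBMT. With peaks near its gene ends alone its PT-Cy ratio was 0.28. Zbtb16, which encodes the innate-like T cell factor PLZF, had 77.3 CPM in CD4 and 52.0 CPM in CD8 cells of PT-Cy, a log2 ratio of 0.57 (0.22 to 0.92), and -0.61 (-0.81 to -0.41) in alloBMT. Each Zbtb16 peak with at least 20 counts had a PT-Cy interval across 0. The most counted of them, chr9:48816914-48817706, had 12 counts in CD4 and 38 in CD8 cells (log2 ratio -0.64, -1.72 to 0.32), and the others lay above 0. Nrp1, a surface receptor of thymic regulatory T cells, also lay on opposite sides of 0 (0.64, 0.30 to 0.98, in PT-Cy and -0.37, -0.55 to -0.19, in alloBMT). The Treg list as a whole had a PT-Cy median of 0.02, or -0.08 with TMM scaling, where all loci had -0.09. Its summed ratio was -0.08 (-0.16 to -0.01) in PT-Cy, and Foxp3 did not reach 50 counts.

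Memory and homing genes leaned less to either side. Il7r, the receptor for the survival cytokine IL-7, had 37.0 CPM in CD4 and 18.9 CPM in CD8 cells of PT-Cy, a log2 ratio of 0.97 (0.42 to 1.52), and 0.46 (0.12 to 0.80) in alloBMT. Tcf7, encoding TCF1, a factor of stem-like T cells, had 0.30 (0.08 to 0.52) in PT-Cy and 0.00 (-0.11 to 0.11) in alloBMT. Cd27, a costimulatory receptor, lay on the CD8 side with -0.58 (-0.91 to -0.26) in PT-Cy and -0.07 (-0.20 to 0.06) in alloBMT. The list of 16 genes had a median of 0.08 in PT-Cy, against 0.01 over all loci. With TMM scaling, which moves all loci alike, these medians were -0.02 and -0.09.

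Among the loci compared in PT-Cy, the ratio passed 2-fold toward CD4 at 39 (0.29%) and toward CD8 at 63 (0.468%). Of these 102 loci, 97 had a smaller contrast in alloBMT, which choosing loci by their PT-Cy ratio also gives. The whole interval lay past 2-fold for 5 loci more open in CD4 (0.0371%) and for 1 less open (0.00743%), which was Cd8b1. The 5 include Tmem176a and Tmem176b, which share both of their peaks and are 1 measurement. TMM scaling, which moves all PT-Cy ratios by -0.10, gave 24 and 95 loci, so that 20.2% of the called loci were more open in CD4, against 38.2% without it. With CD8 counts thinned to the CD4 total the numbers were 43 and 33 loci (56.6% more open in CD4).

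Among the 15 loci with the highest lower bounds, Cd40lg, Trat1 and Galnt9 also passed 1.2 on the log2 scale in alloBMT. Trat1, an adaptor of the T cell receptor, had 58.5 CPM in CD4 and 24.4 CPM in CD8 cells of PT-Cy, a log2 ratio of 1.26 (0.81 to 1.72; alloBMT 1.52). Galnt9, a glycosyltransferase, had 87.7 CPM in CD4 and 38.5 CPM in CD8 cells, a log2 ratio of 1.19 (0.82 to 1.56; alloBMT 1.27), carried by 4 peaks with at least 20 counts whose ratios ran from 0.73 to 2.12. Krt83, a keratin gene, had 1.43 (0.83 to 2.05; alloBMT 1.05). The other loci of that rank were Zswim2, Thsd7b, Hormad2, Chdh, Plcb4, Mettl24, Dnah12, Dgki and Ext1, with PT-Cy ratios from 0.91 (Ext1) to 1.78 (Thsd7b) and alloBMT ratios from 0.02 (Dgki) to 0.68 (Hormad2).

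Loci with the lowest upper bounds, beside Cd8b1, Ccl4, Prf1, Pald1 and Adamts14, were Rasl12, Foxb2, Adrb1, Erg, Tdrd1, Stab2, Il11ra1, Smoc2, Ccn5 and Chd5. Rasl12, a small GTPase, had 18.8 CPM in CD4 and 49.7 CPM in CD8 cells of PT-Cy, a log2 ratio of -1.40 (-2.02 to -0.82), and -0.14 (-0.35 to 0.06) in alloBMT. The contrast lay in 1 peak inside the gene, chr9:65404074-65405373, with 8.45 CPM in CD4 and 36.9 CPM in CD8 cells (log2 ratio -2.13, -3.08 to -1.30), and not in the peak at the gene's low end (-0.03, -1.02 to 0.90). Adrb1, the beta-1 adrenergic receptor, had -1.13 (-1.63 to -0.65) in PT-Cy and -0.14 (-0.29 to 0.01) in alloBMT. Erg, an ETS factor of early T cell progenitors and blood stem cells, lay on the CD8 side in both libraries (-1.11, -1.59 to -0.65, and -0.67, -0.86 to -0.47).

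**Figure D3:**
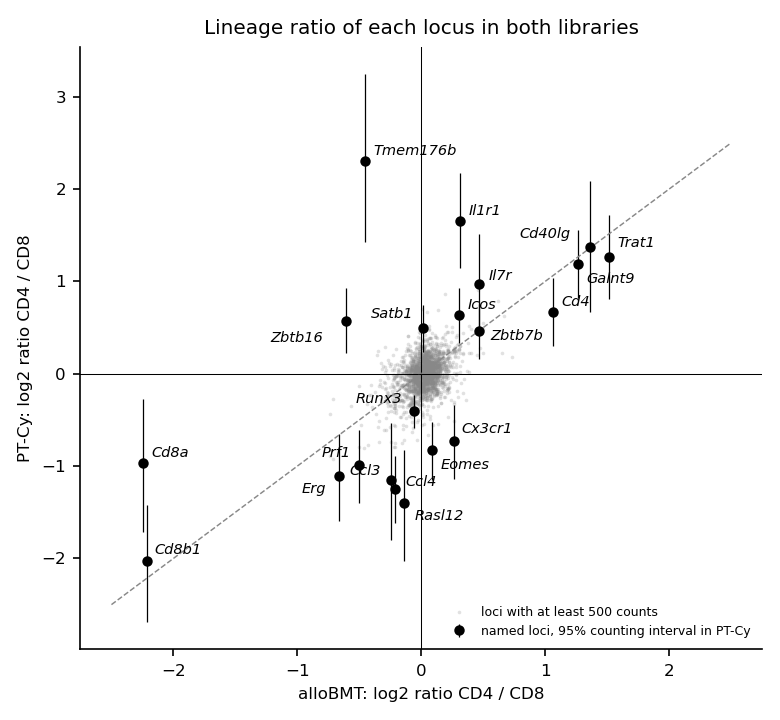
Log2 ratio of CD4 to CD8 CPM of each locus in PT-Cy (vertical axis) and alloBMT (horizontal axis). Grey points are loci with at least 500 PT-Cy counts, black points are named loci with the exact 95% counting interval of PT-Cy, and the dashed line marks equal ratios. Cd8b1, Galnt9, Cd40lg, Trat1 and Zbtb7b lie near the dashed line, Cd8a above it, and Tmem176b, Il1r1, Zbtb16, Ccl4, Eomes and Cx3cr1 far from it. Several named loci were chosen for an extreme PT-Cy ratio or library difference, so distance from the line partly follows from that choice.

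Peaks gave a finer view of the same contrast. Of 21588 peaks, 177 (0.82%) passed 2-fold toward CD4 and 660 (3.06%) toward CD8 in PT-Cy, and 1014 (4.7%) and 2215 (10.3%) passed 1.5-fold. The whole interval lay past 2-fold for 12 (0.0556%) and 20 (0.0926%). The CD8 set was the deeper one. With CD8 counts thinned to the CD4 total the numbers were 118 and 269. Peaks past 2-fold lay mostly away from genes' ends. Of the peaks more open in CD4, 14.1% lay within 1 kb of either end of a protein-coding gene, and of those less open 10.9%, against 47.2% of all peaks compared. They also had fewer counts, with medians of 62 and 69 against 128, but at a minimum of 100 counts, where 16 peaks (0.121%) passed 2-fold toward CD4 and 140 (1.05%) toward CD8, the shares were 12.5% and 12.1% against 63.3%.

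In PT-Cy, peaks away from gene ends had slightly lower CD4 to CD8 ratios than peaks at gene ends. The median log2 ratio was 0.02 for peaks within 1 kb of a gene end, -0.09 for other peaks inside genes and -0.08 for peaks outside genes. In alloBMT these 3 medians were 0.02, 0.01 and 0.02. A common scaling moves all 3 classes alike, so only the gaps between classes can be read here.

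Among the peaks with the highest lower bounds, 5 of 10 also passed 1.5 on the log2 scale in alloBMT, and among those with the lowest upper bounds 1 of 10 did, the peak between the Cd8 genes. A peak inside Nebl, chr2:17364607-17366026, had 24.04 CPM in CD4 and 4.81 CPM in CD8 cells of PT-Cy (log2 ratio 2.32, 1.42 to 3.29; alloBMT 1.59). A peak 101 kb from Icos, chr1:61101505-61102902, had 22.7 CPM in CD4 and 5.13 CPM in CD8 cells (log2 ratio 2.15, 1.26 to 3.10), with 0.34 (-0.30 to 0.95) in alloBMT. A peak outside genes nearest to Furin, a convertase that processes TGF-beta, chr7:80416742-80417603, had 1.67 (1.02 to 2.35) in PT-Cy and -0.51 (-0.91 to -0.14) in alloBMT. On the CD8 side, a peak outside genes nearest to Adgrg1, an adhesion receptor known as GPR56 and found on cytotoxic lymphocytes, chr8:94969257-94970451, had 5.85 CPM in CD4 and 28.9 CPM in CD8 cells of PT-Cy (log2 ratio -2.30, -3.48 to -1.31; alloBMT -0.42). A peak inside Bmerb1 had 1 count in CD4 and 50 in CD8 cells (log2 ratio -4.63, -9.96 to -2.08; alloBMT -0.23).

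Peaks chosen in 1 library were then measured in the other, since the 2 libraries share no mice. Of the 176 peaks more open in CD4 in PT-Cy that were counted in alloBMT, 85.8% had the same sign there, against 54.1% of all peaks, and 17.6% passed 2-fold there, against 0.426%. Of the 660 less open, 73.6% had the same sign, against 45.9%, and 6.21% passed 2-fold, against 0.528%. In the other direction, 92 of the compared peaks were 2-fold more open in CD4 in alloBMT. In PT-Cy 85.9% of them kept the sign, against 46.9% of all peaks, and 33.7% passed 2-fold, against 0.815%, with a median log2 ratio of 0.79 in PT-Cy and 1.19 in alloBMT. Of 114 peaks 2-fold less open in CD4 in alloBMT, 92.1% kept the sign in PT-Cy, against 53.1%, and 36.0% passed 2-fold, with medians of -0.84 in PT-Cy and -1.16 in alloBMT. Without the 6 peaks of the Cd8 region the share that kept the sign was 91.7% of 108. Smaller values in the second library are also what selection in the first gives, so these medians do not show that lineage contrasts were weaker in PT-Cy.

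**Figure D4:**
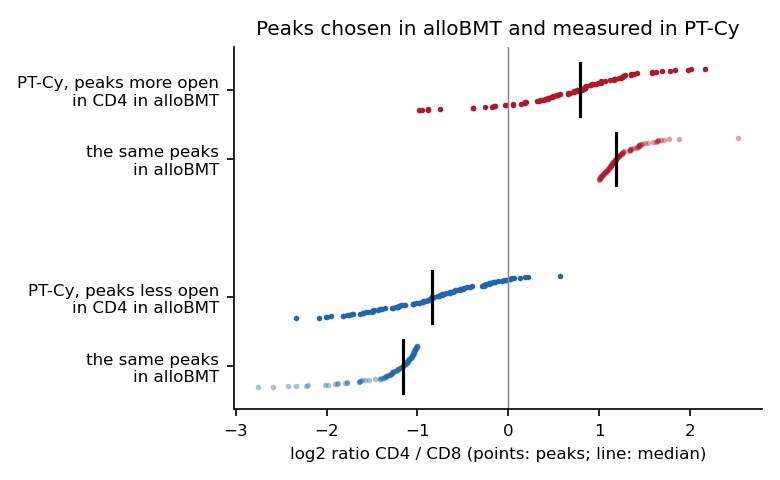
Log2 ratio of CD4 to CD8 CPM of the 92 peaks more open by 2-fold (red) and the 114 less open by 2-fold (blue) in CD4 cells of alloBMT, as measured in PT-Cy and, in the row below each, in alloBMT, where they were chosen; each point is a peak and the black line is the median. The PT-Cy medians were 0.79 and -0.84, on the same side of 0 as the alloBMT medians of 1.19 and -1.16.

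The same held at loci. All 8 loci 2-fold more open in CD4 in alloBMT (0.0594%) had a ratio above 0 in PT-Cy, against 52.1% of all loci, and 5 of them passed 2-fold. Of 24 loci 2-fold less open there (0.178%), 18 lay below 0 in PT-Cy (75.0%), against 47.9% of all loci, and 3 passed 2-fold. Across 13460 loci the ratios of the 2 libraries had a Pearson correlation of 0.28 and a Spearman correlation of 0.22, and across the 2109 loci with at least 500 counts of 0.42 and 0.34. These are correlations across loci, which are not independent, and counting error lowers them.

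The contrast was also read between the CD4 and CD8 cells that carry the deposited cluster number 2. Cluster 2 held 238 of the 284 CD4 cells and 170 of the 512 CD8 cells of PT-Cy, and the other CD8 cells lay mainly in clusters 5 (189 cells) and 6 (121 cells). The sets of cluster 2 had 1340653 counts in CD4 and 1428489 in CD8 cells, with medians of 4122 and 7903 counts per cell. The sources used here do not say how the authors made the clusters. They also do not say whether the CD4 and CD8 sets were numbered apart. Cluster 2 may therefore name unlike groups of cells in the 2 sets, and the values are descriptions. Within cluster 2 the log2 ratio was 1.14 at Cd4 (0.62 to 1.67), -2.48 at Cd8b1 (-3.24 to -1.79) and -1.33 at Cd8a (-2.26 to -0.48). The ratio was 0.71 at Zbtb7b (0.31 to 1.12), 1.17 at Satb1 (0.82 to 1.53), 0.70 at Tcf7 (0.41 to 0.99) and 2.03 at Il7r (1.13 to 3.04), each farther from 0 than over all cells. Ccl4 (-1.43, -1.87 to -1.01), Prf1 (-1.18, -1.63 to -0.75), Eomes (-1.05, -1.43 to -0.69) and Cx3cr1 (-0.996, -1.48 to -0.53) stayed on the CD8 side, and Il1r1 (2.33), Tmem176b (2.98) and Zbtb16 (0.84) on the CD4 side. Over the same list members the cytotoxic median was -0.58, with 13 of 15 below 0, the exhaustion median -0.35, with 15 of 16 below 0, and the helper median 0.39, with 14 of 18 above 0. The CD4 lineage median was 0.29, with 8 of 14 above 0, and the CD8 lineage median -0.27, with 13 of 15 below 0. Over all 13460 loci 7077 lay above 0 in cluster 2 and 6383 below.

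**Figure D5:**
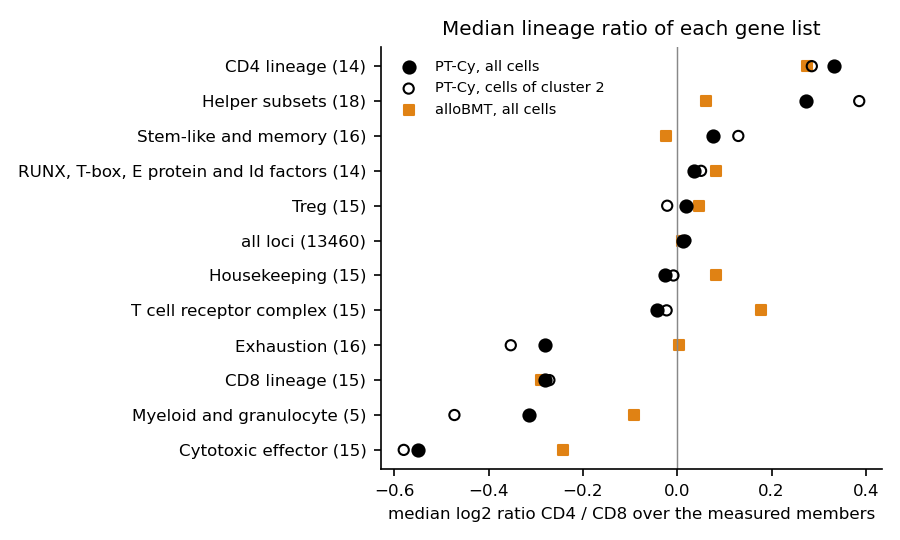
Median log2 ratio of CD4 to CD8 CPM over the measured members of each gene list, their number in brackets, in all PT-Cy cells (filled circles), in PT-Cy cells of the deposited cluster 2 (open circles) and in all alloBMT cells (squares); lists with under 5 measured members are left out. The cytotoxic list lay at -0.55, -0.58 and -0.24, and the exhaustion list at -0.28, -0.35 and 0.00. Cluster 2 may not name the same group of cells in the CD4 and CD8 sets.

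Lists meant as references differed in how near 0 they lay. The T cell receptor complex had a median of -0.04 in PT-Cy and 0.18 in alloBMT. Housekeeping genes had -0.03 in PT-Cy, with a summed ratio of 0.04, and 0.08 in alloBMT. In each of these lists 14 of 15 genes lay above 0 in alloBMT, against 53.2% of all loci. The list of RUNX, E protein and Id factors had 0.04 in PT-Cy and 0.08 in alloBMT, where 12 of 14 lay above 0. With TMM scaling its PT-Cy median was -0.06 and that of all loci -0.09. In this last list Runx1 and Runx2 had ratios of 0.26 (0.14 to 0.39) and 0.18 (0.04 to 0.32), on the side opposite to Runx3. Markers of other blood cells were counted at few loci. For B cells 3 of 8 genes reached 50 counts, with a median of -0.46 and a summed 147 CPM in CD4 and 181 CPM in CD8 cells (log2 ratio -0.30, -0.53 to -0.08). For myeloid cells 5 of 10 did, with a median of -0.31 and a summed 145 CPM in CD4 and 171 CPM in CD8 cells (log2 ratio -0.24, -0.47 to -0.01), and Lyz2, S100a8, S100a9, Elane and Csf1r did not. For NK and innate lymphoid cells 3 of 8 did, with 149 CPM in CD4 and 166 CPM in CD8 cells, for erythroid cells 1 of 8 (Klf1, 37.0 CPM in CD4 and 35.6 CPM in CD8 cells), and 3 gamma-delta T cell genes had a median of -0.11. All 3 B cell genes and 4 of 5 myeloid genes lay on the CD8 side, as did 47.9% of all loci. With peaks near gene ends alone Pax5 lay on the CD4 side (0.28). The part of these genes in the lineage ratios was not tested.

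RNA of the CD4 set, which the choice of loci did not use, was detected at a lower share of the loci less open in CD4. Of the loci 2-fold more open in CD4, 32 of 39 (82.1%) had at least 1 UMI in the PT-Cy CD4 cells, and of those 2-fold less open 26 of 62 (41.9%), against 11297 of 13129 loci measured in both assays (86.0%). Both called sets had similar ATAC depth over CD4 and CD8 cells together, with medians of 74 and 72.5 counts per locus, against 268 over all loci. By the call itself the less open loci hold fewer of these counts in CD4 cells, so depth in the cells whose RNA was read was not matched. At 1.5-fold, a ratio passed by 303 loci more open (2.25%) and 378 less open (2.81%), the median RNA level was 3.96 CPM for the more open and 0.791 CPM for the less open, against 19.8 CPM over all. Among named loci, Trat1 had 112 CPM of RNA in the CD4 cells, Cd40lg 149 and Il7r 309. Ccl4 had 127 CPM of RNA and Prf1 104. RNA of CD8 cells was not analysed here.

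Motif letters were counted in 300 bases around the most counted start site of each locus, 250 before to 50 after it, on both strands. The T-box letters GGTGTGA occurred in 6.25% (3.46 to 10.3) of 224 promoters of loci 1.5-fold less open in CD4, against 4.28% (1.86 to 8.26) of 187 more open and 3.36% of all 9836. The KLF letters GGGTGTG, which can overlap those of the T-box, occurred in 13.4% of the less open (9.22 to 18.6) and 5.88% of the more open (2.97 to 10.3), against 8.20% of all. The palindromic E-box letters occurred in 20.9% of the more open (15.3 to 27.4) and 15.2% of the less open, against 13.9% of all. The ETS letters CGGAAGT were rarer in both, with 6.95% of the more open and 4.91% of the less open against 14.3%. RUNX letters occurred in 16.0% and 14.3%, against 12.1%, with intervals that held the share of all promoters. The GATA letters AGATAA occurred in 9.63% and 4.02%, against 5.32%. The TCF/LEF letters CTTTGAA occurred in 4.28% and 2.68%, against 3.14%. Loci past 1.5-fold have fewer counts than others, and matches are descriptions of letters, not of binding.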

How the data were processed

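ATAC counts per peak and cell, and RNA counts per gene and cell for the CD4 set, were whole numbers with no normalization as deposited by the authors. Cell Ranger ARC 1.0.1 and MACS2 are named in the submitters' processing notes, as is the build GRCh38, a human build. The genes are mouse, and 49.2% of 32851 RefSeq start sites of GRCm38.p6 lay in a deposited peak, against 5.57% to 6.12% after shifts of 2 to 200 kb, so genes were taken from that table and peak positions are printed as deposited. Per the file headers, the deposited per-cell table gives the fraction of fragments in peaks (shown as percent), the ratio of enrichment at start sites, the percent of mitochondrial UMIs and module scores by the authors. Of its 58 columns, 44 were not used. The sources used here do not say how cells were filtered or doublets treated. Doublets were not called; instead, leaving out the 5% of cells with the highest counts was tried.

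Each set's cells were added up per peak and scaled to that set's total in peaks. Where a set had 0 counts, 3 counts stood in as the floor. A feature was compared at 50 counts or more over the 2 PT-Cy sets and called at 2-fold, or at 1.5-fold where stated. Intervals (95%) and floors cover counting error only; PCR copies, cells of 1 mouse and mice of 1 pool are not independent. Differences between libraries have the exact conditional interval of the odds ratio. The members, the 16 gene lists (215 genes) and the rules were chosen with earlier results of these data known. Named loci were the 15 in each direction with the interval bound farthest from 0, all genes of the 2 lineage lists, up to 4 genes with the highest absolute ratio of each other list, and the 5 loci in each direction with the PT-Cy minus alloBMT difference farthest from 0; named peaks were 10 in each direction and those of Cd4, Cd8a, Cd8b1, Zbtb7b and Runx3. Further list members, such as Gzmb, Maf and Pdcd1, were named after their values were seen. The gene names Thpok, Mazr, Cd39, Scart1, Scart2, Tcrg-C1 and Trdc matched no locus. Of the promoters shown, all come from the RefSeq table; Cd4 and Cd8b1 are named only. Scaling by DESeq2 1.42.0 or by TMM in edgeR 4.0.16 was tried, as were other minimums, thinning, binary counts, per-cell means, cell subsets and other gene windows. The computation was tested on simulated data. R 4.3.3 and Python 3.11.15 were used, with matplotlib 3.10.9, pandas 2.3.3, scipy 1.17.1 and numpy 2.4.6.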

Additional observations from a re-analysis of the deposited data

Results flagged for a closer look

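At 4 of 106 named loci the CD4 to CD8 ratio lay on opposite sides of 0 in the 2 libraries, with neither counting interval reaching 0. The share over all loci was not counted. With 1 library each the difference between libraries was not tested. Myod1, Zbtb16 and Cx3cr1 were among the loci named for the size of this difference, so turned signs there partly follow from that choice. Myod1, a muscle factor, had a log2 ratio of 1.19 in PT-Cy and -0.58 in alloBMT, on 35 and 31 PT-Cy counts in CD4 and CD8 cells. Nrp1 had 0.64 in PT-Cy and -0.37 in alloBMT, Zbtb16 had 0.57 and -0.61, and Cx3cr1 had -0.73 and 0.26. The difference, PT-Cy minus alloBMT, was 1.77 at Myod1 (0.93 to 2.61), 1.01 at Nrp1 (0.62 to 1.40), 1.18 at Zbtb16 (0.78 to 1.59) and -0.99 at Cx3cr1 (-1.42 to -0.57).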

How the results depend on the processing

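No paired analysis was possible because each group has 1 library, with no replicate to leave out. The smaller count of each pair limits its interval, and Foxp3 and 13 of 17 killer lectin-like receptor loci fell below 50 counts. Counts past 2-fold moved with the count minimum and with the rule for a call; neither lineage median changed sign under any alternative run. At 22 named loci the sign changed under at least 1 alternative, all with a reported log2 ratio within 0.50 of 0; Pax5 had -0.50 as reported and 0.28 with peaks near gene ends alone. That setting, on fewer counts, also gave Il1r1 0.28, Rasl12 -0.32, Pald1 -0.27, Ext1 0.33, Smoc2 -0.18, Plcb4 0.60, Ccn5 -2.64 and Hormad2 2.28, with Trat1 also farther above 0. Peaks within 10 kb gave Tdrd1 -0.49, Il11ra1 -0.25 and Hormad2 0.81, and CD4 cells without a Cd8b1 UMI gave Prf1 -1.52, Eomes -1.18, Nkg7 -1.12 and Foxb2 -3.82.

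As reported, 177 peaks were more open and 660 less open in CD4, 76.2% of them had the same direction in alloBMT, 39 loci were more open and 63 less open, and 112 loci differed 2-fold between libraries; the CD4 and CD8 lineage medians were 0.33 and -0.28. In that order, a minimum of 20 counts gave 1773, 2601, 70.1%, 120, 168 and 361. A minimum of 1 count gave 9949, 9344, 59.6%, 397, 391 and 970. A minimum of 100 gave 16 and 140 peaks, 10 and 20 loci, 24 differing loci and medians of 0.20 and -0.41. A 1.5-fold threshold gave 1014 and 2215 peaks, 70.0%, 303 and 378 loci and 757 differing loci. The whole interval past 2-fold left 12 and 20 peaks, 90.3%, and 5 and 1 loci. TMM scaling gave 72.6%, 24 and 95 loci and medians of 0.23 and -0.38. Mean CPM over cells gave 275 peaks more open, 74 and 117 loci, 202 differing loci and a CD8 median of -0.49. Thinned CD8 counts gave 269 peaks and 33 loci less open and medians of 0.42 and -0.40. Counting each cell once per peak gave 94 peaks more open. CD4 cells without a Cd8b1 UMI gave 1020 peaks less open, 66 and 137 loci, 186 differing loci and a CD8 median of -0.39. Leaving out the 5% of cells with the most counts gave a CD8 median of -0.51. Peaks within 2 kb of either gene end gave 25 loci more open and medians of 0.10 and -0.59. Cells with cluster number 2, an alternative chosen after seeing the data, gave 91 loci more open and medians of 0.031 and -0.41. The minimum of 50 counts was applied to these cells. Over the same list members as in all cells the cluster 2 medians were 0.29 and -0.27. Apart from the minimum, threshold and subset themselves, the cause of these moves was not tested.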

Other observations

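Scg3, a granin of secretory vesicles, had one of the 5 PT-Cy minus alloBMT differences farthest above 0, 1.91 (0.88 to 2.93). It had 18.2 CPM in CD4 and 10.9 CPM in CD8 cells of PT-Cy (log2 ratio 0.74, -0.04 to 1.503), and 3.59 CPM in CD4 and 8.07 CPM in CD8 cells of alloBMT (log2 ratio -1.17, -1.85 to -0.55).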
